A study of Mus musculus with 12 samples.

Results

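Frem1, Frem2, Fras1 and Grip1, the genes of the Fraser complex, were followed through 12 RNA sequencing libraries of macula densa cells and control cells sorted from mouse kidney cortex. They were found by gene symbol among the 23378 genes of the deposited table of estimated counts, and all 4 were among the 14180 genes that passed the filter on low counts. Frem1 was chosen by its measured values, as a gene high in macula densa cells and higher there on low salt diet with enalapril, so its values in those comparisons are given as a description, with no test. Frem2, Fras1 and Grip1 entered as genes of the same complex.

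All mice were of the C57BL/6 strain and carried nNosCreERT2-mTmG, a Cre recombinase made active by tamoxifen and driven by the nNos gene (Nos1), with a reporter that changes from red tdTomato to green GFP where Cre has acted. Sorting took the green cells for macula densa and, as control cells, those with the strongest red signal, which the labels describe as epithelium of the distal tubule and collecting duct. The mice had a control diet, or a low salt diet together with the drug enalapril, which blocks angiotensin-converting enzyme, at 150 mg/L in the drinking water, for 14 days. Low salt and enalapril were given together, so their effects cannot be told apart. Each diet had 2 macula densa libraries and 4 control-cell libraries. Nothing in the labels says whether a library came from 1 animal, so p-values measure the spread between these libraries only. Each macula densa library shares a number in its description with 1 control-cell library, and what the number marks is not stated.

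Total counts ranged from 4259034 to 14856540 per library, of which the noncoding gene Gm42418, a locus that covers ribosomal RNA sequence, took 53.5% to 65.0%. Levels are given as CPM, a gene's count relative to the total of its library, after scaling by trimmed means of M values (TMM), and 3 counts amounted to between 0.231 and 0.734 CPM. Nos1, the gene that drives Cre, measured 100 to 232 CPM in the 4 macula densa libraries and at most 0.734 CPM in the 8 control-cell libraries. Ren1, the renin gene, measured 1.88 to 6.19 CPM in control cells on control diet and 42.7 to 135 CPM on low salt with enalapril, with no overlap of libraries. The control cells did not carry markers of the distal tubule and collecting duct alone. Summed levels of 7 principal cell markers in them ranged from 102 to 808 CPM, those of 6 podocyte markers from 39.98 to 1317 CPM and those of 7 endothelial markers from 37.4 to 1314 CPM. In macula densa libraries the same sums reached at most 36.0, 145 and 145 CPM. All 3 maxima were in control diet replicate 1, and the other macula densa libraries had at most 28.5, 15.2 and 20.2 CPM.

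FRAS1, FREM1 and FREM2 are large proteins of the extracellular matrix that assemble into a ternary complex in the basement membrane under epithelia, and each depends on the others to stay there. FRAS1 and FREM2 span the cell membrane and are released by cleavage, FREM1 is secreted, and GRIP1 is a scaffold with PDZ domains inside the cell that carries FRAS1 and FREM2 to the basal surface. Loss of these genes in mice gives blisters under the embryonic skin and failure of kidney development, and in people Fraser syndrome or related disorders. In the developing kidney the complex helps to hold nephronectin, a ligand of the integrin alpha 8 beta 1, beneath the ureteric bud.

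By GENCODE M21 (mouse assembly GRCm38), Frem1 lies on the minus strand at chr4:82897920-83052339, with 13978 exonic bases in 8 transcripts. Frem2 lies on the minus strand at chr3:53513938-53657355 (13255 exonic bases) and Fras1 on the plus strand at chr5:96373955-96784728 (17709 exonic bases). Grip1 lies on the plus strand at chr10:119453830-120087261, with 8064 exonic bases in 16 transcripts. No annotated gene overlaps Frem1 or Frem2. Fras1 overlaps Gm33050, Gm42605 and Gm42604, of which Gm42604 alone is in the table, with 23 counts over the 12 libraries against 3347 for Fras1. Grip1 is overlapped by 9 genes, among them Helb on the opposite strand with 365 counts and the same-strand models Gm47341, Gm47024 and Gm47026 with 40, 78 and 83, against 183 for Grip1 itself. The libraries were made with a stranded kit, but whether counting used the strand is not given in the sources used here, and the Grip1 count is therefore uncertain.

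RefSeq start sites were matched for 3 of the 4 genes (GRCm38.p6): Frem1 with 2, Frem2 with 1 and Grip1 with 3. The sequences before the Frem1 and Frem2 starts are shown because these secreted and membrane-bound partners had opposite patterns between the cells below. Each reads 5′ to 3′ on the gene's own strand, minus for both genes, and capitals mark a match to one of the 5 motifs searched. The first run is chr4:83021103-83021352, up to a Frem1 start inside the gene. It lies within Frem1 and outside every annotated exon, so by GENCODE M21 it is intron sequence. Whether transcription begins at that start was not tested. The second, chr4:83052340-83052416, is the part outside exons of the window before the outer of the 2 RefSeq Frem1 starts. That start is at 83052166, and the run does not reach it. The third is chr3:53657356-53657605, up to the Frem2 start.
Frem1, inner start: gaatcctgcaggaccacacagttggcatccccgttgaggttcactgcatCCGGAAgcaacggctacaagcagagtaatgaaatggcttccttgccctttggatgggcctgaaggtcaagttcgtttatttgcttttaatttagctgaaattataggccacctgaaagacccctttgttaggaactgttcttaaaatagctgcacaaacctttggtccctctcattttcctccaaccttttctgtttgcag
Frem1, outer start: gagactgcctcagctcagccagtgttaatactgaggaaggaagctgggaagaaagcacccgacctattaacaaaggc
Frem2: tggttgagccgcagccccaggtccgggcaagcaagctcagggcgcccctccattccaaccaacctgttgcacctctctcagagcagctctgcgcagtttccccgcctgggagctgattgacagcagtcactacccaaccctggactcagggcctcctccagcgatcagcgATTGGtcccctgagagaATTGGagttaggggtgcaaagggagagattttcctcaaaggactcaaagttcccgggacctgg

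The motifs, searched on both strands over 250 bases before to 50 bases after each start, were the TATA box (TATAAA), the CCAAT box (CCAAT), the GC box (GGGCGG), the ETS core (CCGGAA) and an AP-2 motif (GCCNNNGGC). The inner Frem1 window held an ETS core whose first base lies at -201 from the start site, a motif found in 14.9% of all 32851 RefSeq windows of the same length. The outer Frem1 window held CCAAT boxes only after the start, at 8 and 44. The Frem2 window held CCAAT boxes in reverse, printed as ATTGG, at -80 and -63, and 37.4% of all windows held at least 1. Of the Grip1 windows, the one at the innermost start held a CCAAT box at -199, the outermost GC boxes at -206 and -202 (a motif in 35.7% of all windows) and the other a TATA box at -98 (13.6%). These matches describe letters in the windows and show no binding.

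Frem1, the secreted member, measured 10.5 and 11.7 CPM in macula densa cells on control diet, from 102 and 144 counts, and 64.0 and 40.2 CPM on low salt with enalapril, from 334 and 245 counts. Both libraries on low salt with enalapril lay above both on control diet. Control cells had 0.437, 0.658, 0.476 and 0.103 CPM on control diet, from 4, 7, 5 and 1 counts. On low salt with enalapril they had 0.0769, 0.979, 0.420 and 0.305 CPM, from 1, 4, 2 and 3 counts. Every macula densa library was thus more than 10 CPM and every control-cell library under 1 CPM. The pooled counts of macula densa over control cells gave a ratio of 26.3 on control diet (95% interval from counting error alone 16.1 to 45.8) and 162 on low salt with enalapril (87.5 to 340). Within macula densa cells the ratio of the diets was 4.58 (3.94 to 5.34). These values chose the gene and are not evidence for it. For scale, 6.02% of the genes tested were higher in every macula densa library than in every control-cell library of the same diet, on both diets, and 18.8% were higher in both macula densa libraries on low salt with enalapril than in both on control diet.

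**Figure D1:**
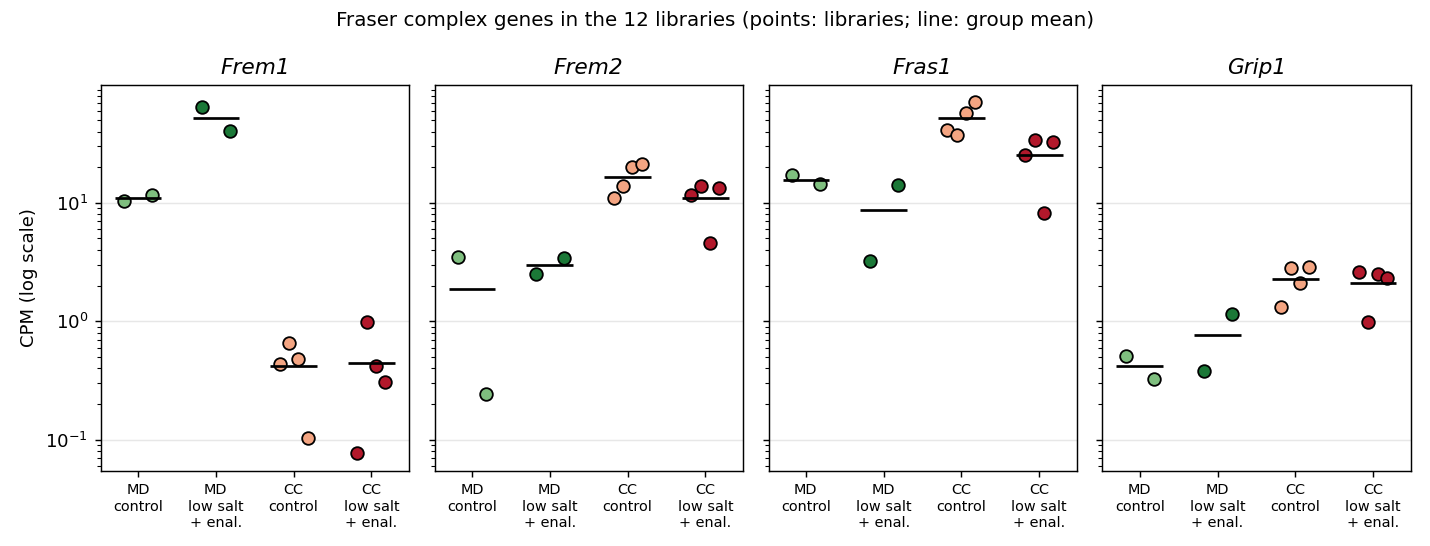
Level of each Fraser complex gene in CPM (log axis) for the 12 libraries, with macula densa (MD) and control cells (CC) on control diet or on low salt with enalapril. Points are libraries and lines are group means; Frem1 sits between 10.5 and 64.0 CPM in MD and under 1 CPM in CC, while Frem2 in CC sits above MD on both diets.

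Set against other genes of the same library, Frem1 in macula densa cells was again higher on low salt with enalapril, which is a description. It had 10.4 and 10.6 counts per 100 Nos1 counts on control diet and 27.6 and 33.1 on low salt with enalapril. Per 100 counts of Slc12a1, the salt cotransporter of the thick ascending limb and macula densa, it had 0.592 and 0.579, then 3.41 and 1.998. Both ratios were higher in both low salt libraries, and neither depends on the scaling of libraries. The summed level of the 6 macula densa markers was 2151 to 2427 CPM on control diet and 2656 to 3087 CPM on low salt with enalapril, while that of the 8 thick ascending limb markers was 3365 to 4276 and 2441 to 2588 CPM. Slc12a1 was in both lists and made up most of the macula densa sum, at 1769 and 2026 CPM on control diet. On low salt with enalapril it had 1875 and 2012 CPM. The macula densa list also held Nos1 and Ptgs2, whose mean levels were higher on low salt with enalapril. The part of the shifts of these sums in the Frem1 values was not tested. In control cells the few Frem1 counts, 17 on control diet and 10 on low salt with enalapril, were about as many as the Nos1 counts, 14 and 17. In bulk libraries, fewer cells of a type and less RNA per cell cannot be told apart.

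The diet comparison of Frem1 in control cells was not used to choose it and was tested. The log2 fold change was -0.30 (standard error 0.64, 95% interval -1.68 to 1.08, edgeR adjusted p = 0.996), and the libraries overlapped. Leaving out each library in turn moved the value between -0.87 and 0.24, so its sign was not settled. At 1 to 7 counts per library a change within that interval was not detectable.

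Fras1, the membrane-bound core of the complex, was lower in macula densa cells than in control cells when both diets were averaged. It measured 17.0 and 14.3 CPM in macula densa cells on control diet, against 41.3, 37.7, 57.9 and 70.5 CPM in control cells, and these libraries did not overlap. On low salt with enalapril it measured 3.26 and 14.1 CPM against 25.6, 34.3, 8.19 and 32.7 CPM, where replicate 2 of the macula densa cells lay above replicate 3 of the control cells. The averaged log2 fold change was -1.63 (standard error 0.42, edgeR adjusted p = 0.0171). The call was lost without macula densa control diet replicate 1 (-1.70, edgeR adjusted p = 0.0502) or replicate 2 (-1.56, 0.0752), and without macula densa low salt replicate 1 (-1.28, 0.0534). Without macula densa low salt replicate 2 it was -2.33 and called. On each diet alone it did not pass, at -1.72 on control diet (edgeR adjusted p = 0.0979) and -1.53 on low salt with enalapril (0.135).

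Frem2, the other membrane-spanning member, was lower in macula densa cells in the averaged comparison and on control diet. Macula densa cells had 3.49 and 0.244 CPM on control diet, from 34 and 3 counts, and 2.49 and 3.44 CPM on low salt with enalapril. The library with 34 counts, replicate 1, also had the highest podocyte and endothelial marker sums of the macula densa libraries (145 CPM each). The part of other cells in its Frem2 level was not tested. Control cells had 10.9, 13.9, 20.1 and 21.4 CPM on control diet and 11.8, 14.0, 4.62 and 13.2 CPM on low salt with enalapril. Every macula densa library lay below every control-cell library, which on both diets held for 7.6% of the genes tested. The averaged log2 fold change was -2.53 (standard error 0.51, edgeR adjusted p = 0.00544), and it stayed past the threshold without each library in turn, between -2.05 and -3.95. The latter is the value without macula densa control diet replicate 1, which leaves the library with 3 counts alone in its group. On control diet it was -3.19 (standard error 0.74, edgeR adjusted p = 0.0254). That call was lost without macula densa control diet replicate 2, the library with 3 counts (-2.20, edgeR adjusted p = 0.157), and without replicate 1 the value was -5.99. It was also lost without control-cell control diet replicate 3 (-3.08, 0.0617). On low salt with enalapril it was -1.87 (edgeR adjusted p = 0.127), and it passed without macula densa control diet replicate 1 or 2 (-1.91, 0.0409 for either), libraries that share only the estimate of the spread.

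Grip1, the scaffold, was lower in macula densa cells at very low counts. Macula densa libraries had 0.513 and 0.326 CPM on control diet and 0.383 and 1.15 CPM on low salt with enalapril, from 2 to 7 counts each. Control cells had 1.31, 2.82, 2.10 and 2.89 CPM on control diet and 2.613, 0.979, 2.52 and 2.34 CPM on low salt with enalapril. Libraries of the cells were apart on control diet and overlapped on low salt with enalapril. The averaged log2 fold change was -1.94 (standard error 0.44, edgeR adjusted p = 0.00889), and the call was lost without macula densa control diet replicate 2 (-1.79, 0.0525). On control diet it was -2.42 (edgeR adjusted p = 0.0388). That call was lost without macula densa control diet replicate 1 or 2, control-cell control diet replicate 2 or 3, or control-cell low salt replicate 1 or 4, with edgeR adjusted p-values from 0.0544 to 0.294. With scaling by library totals alone it was -2.25 (edgeR adjusted p = 0.0533). On low salt with enalapril it did not pass (-1.45, edgeR adjusted p = 0.163).

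Frem1 is left out of the counts that follow, as it was chosen for being high in macula densa cells. In the averaged comparison the 3 members that entered as genes of the same complex were all called lower. Of all genes tested, 13.9% were called lower, 7.48% higher and 21.3% in either direction. On control diet 2 of these 3 were called lower, against 6.61% called in all, 2.69% higher and 3.92% lower. On low salt with enalapril none of Frem2, Fras1 and Grip1 was called, against 7.27% called in all, 3.15% higher and 4.13% lower. With no test of calls, all 3 were lower without overlap on control diet, where 16.7% of genes were and 15.2% were higher. On low salt with enalapril 1 of 3 (Frem2) was, where 19.5% were lower and 15.3% higher. The split of calls depended on scaling. With library totals alone 55.8% of the calls in the averaged comparison were higher in place of 35.1%, 62.3% in place of 40.7% on control diet and 65.2% in place of 43.3% on low salt with enalapril. The median of all genes then moved from -0.06 to 0.14 on the log2 scale in the averaged comparison. Averaged log2 fold changes of Frem2, Fras1 and Grip1 stayed negative under that scaling.

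**Figure D2:**
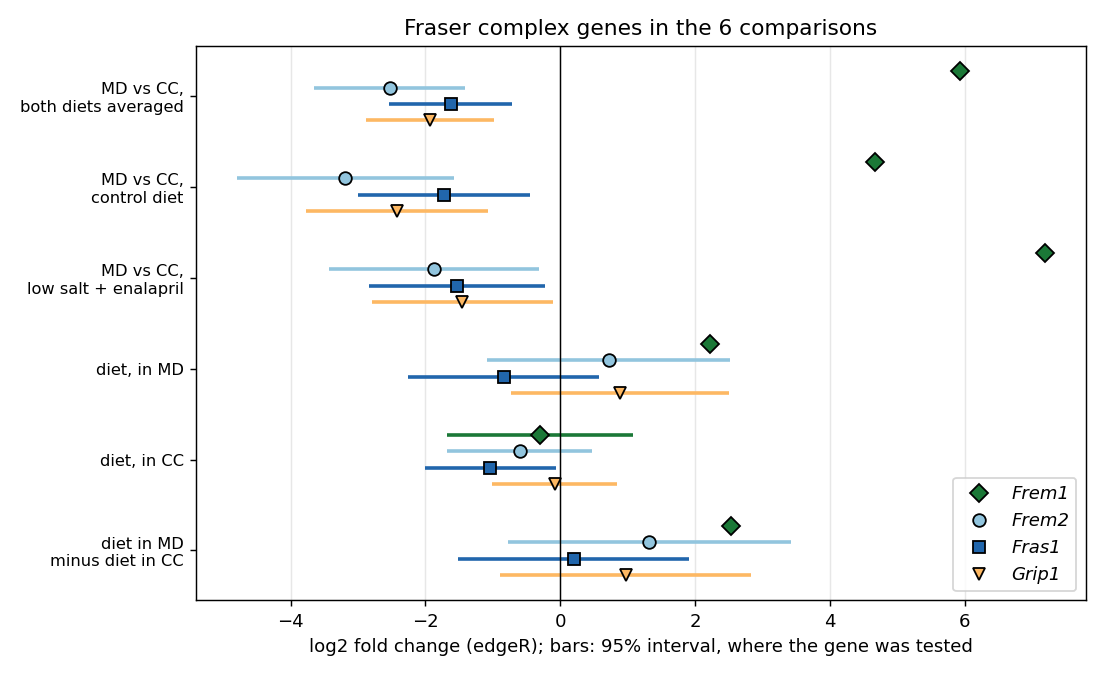
Log2 fold change of each gene in the 6 comparisons, with macula densa (MD), control cells (CC) and diet meaning low salt with enalapril against control diet; bars are 95% intervals, drawn where the gene was tested. Frem1 lies right of 0 in the comparisons of cells (5.93 averaged) and Frem2, Fras1 and Grip1 lie left (-2.53, -1.63 and -1.94), while the intervals of the diet effects of Frem2 and Grip1 include 0.

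Markers of other cells also differed between macula densa and control cells. All 7 principal cell markers, 4 of 6 intercalated cell markers, all 6 podocyte markers and all 7 endothelial markers were called lower in macula densa cells in the averaged comparison. The summed level of intercalated markers was 17.1 to 31.5 CPM in macula densa libraries and 21.9 to 350 CPM in control cells. Control-cell control diet replicate 4 had the highest Fras1 (70.5 CPM) and Frem2 (21.4 CPM) together with the highest principal cell (808 CPM) and intercalated (350 CPM) sums and the lowest podocyte (39.98 CPM) and endothelial (37.4 CPM) sums. Control-cell low salt replicate 3 had the lowest Fras1 (8.19 CPM) and Frem2 (4.62 CPM) and the lowest principal cell sum (102 CPM). Its intercalated, podocyte and endothelial sums were 86.3, 207 and 184 CPM. Control-cell control diet replicate 1 had the next lowest principal cell sum (117 CPM) and the lowest intercalated sum (21.9 CPM), with Fras1 at 41.3 CPM and Frem2 at 10.9 CPM. In control-cell low salt replicate 1 the principal cell sum was 345 CPM and Fras1 25.6 CPM. Low salt replicates 2 and 4 had lower sums (173 and 271 CPM) and higher Fras1 (34.3 and 32.7 CPM). The part of the cell mixture in the Fras1, Frem2 and Grip1 differences was not tested.

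Of the other lists of markers, the 6 macula densa markers had 5 called higher and none lower, and the 8 thick ascending limb markers 4 higher and none lower. Of 7 proximal tubule markers 2 were higher, and of 6 distal convoluted and connecting tubule markers 0 were called. Of 5 parietal epithelial markers 1 was higher and 2 lower. Among fibroblast and mesangial, smooth muscle and renin cell, and leukocyte markers, 4 of 6, 4 of 5 and 3 of 4 tested were lower and none higher.

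Shares of the 4 genes in their summed counts, not corrected for transcript length and in part the values that chose Frem1, are given as a description of transcripts. Frem1 made up 33.2% and 44.0% of the counts of the 4 genes in macula densa cells on control diet, and 91.3% and 68.2% on low salt with enalapril. In control cells its share was 0.109% to 2.67%, and Fras1 held the largest share in each of the 8 libraries, from 52.0% to 76.5%. Fras1 also led in macula densa cells on control diet, with 53.8% and 54.1% of the counts, and had 4.64% and 24.0% on low salt with enalapril. Frem1 had 61.4 and 81.8 counts per 100 Fras1 counts on control diet, against 1965 and 285 on low salt with enalapril and 0.147 to 5.13 in control cells. The 1965 rests on 17 Fras1 counts.

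**Figure D3:**
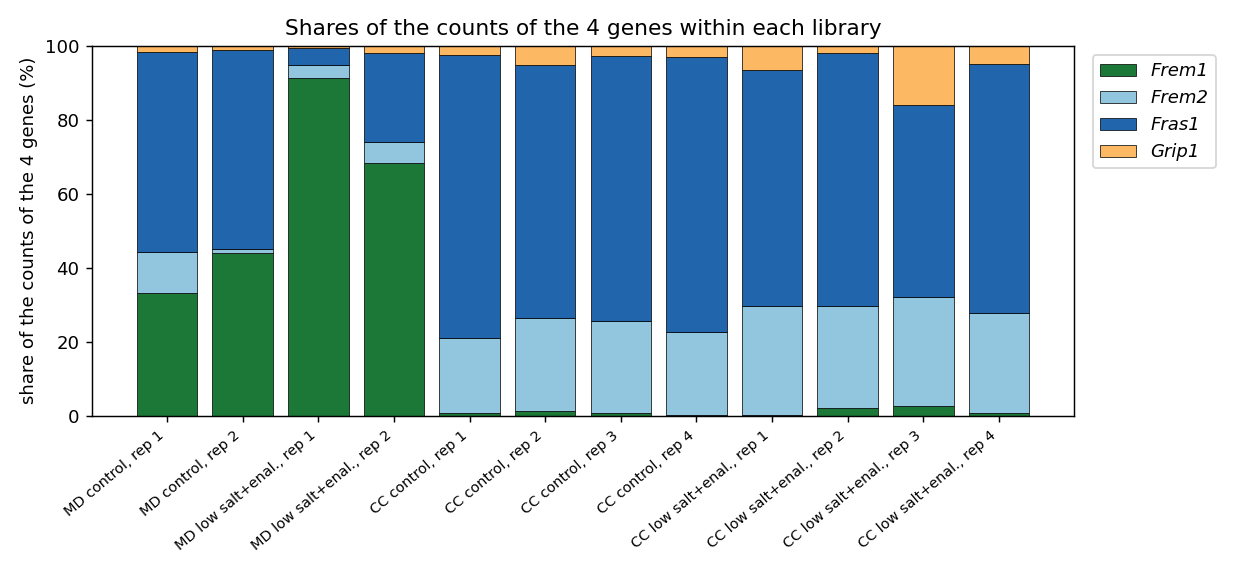
Share (%) of the summed counts of the 4 genes taken by each gene, 1 bar per library of macula densa (MD) and control cells (CC). Frem1 takes 33.2% to 91.3% of the bar in MD and at most 2.67% in CC, where Fras1 takes 52.0% to 76.5%.

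Counts grow with transcript length, so levels were set side by side as CPM per kilobase of exonic sequence. In macula densa cells on control diet Fras1 (0.886 ± 0.108, SD, n = 2) and Frem1 (0.794 ± 0.0641) did not differ beyond their spread, followed by Frem2 (0.141 ± 0.173) and Grip1 (0.0520 ± 0.0164), which overlapped each other. On low salt with enalapril Frem1 (3.73 ± 1.20) led, with Fras1 (0.490 ± 0.433), Frem2 (0.224 ± 0.0509) and Grip1 (0.0950 ± 0.0671) below it, and Fras1 and Frem2 overlapping. In control cells on control diet the order was Fras1 (2.93 ± 0.859, SD, n = 4), Frem2 (1.25 ± 0.376), Grip1 (0.283 ± 0.0916) and Frem1 (0.0299 ± 0.0165), and no library of a gene overlapped those of the next. The same order held by group mean on low salt with enalapril, at 1.42, 0.822, 0.262 and 0.0319, with Fras1 and Frem2 overlapping. Frem1 in macula densa cells stayed below Nos1, which measured 9.47 and 15.9 per kilobase on the respective diets.

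Diet did not bring Frem2, Fras1 or Grip1 past the threshold in either cell population. In macula densa cells Frem2 changed by 0.72 on the log2 scale (95% interval -1.08 to 2.52), Fras1 by -0.84 (-2.26 to 0.58) and Grip1 by 0.89 (-0.73 to 2.51), with edgeR adjusted p-values of 0.784, 0.662 and 0.684. Without macula densa control diet replicate 1 and 2 in turn Frem2 was 3.48 and -0.31, and without macula densa low salt replicate 1 and 2 Fras1 was -0.22 and -2.32 and Grip1 1.37 and -0.16. The sign of the Frem2 and Grip1 values thus rested on 1 library each. For Frem2 the interval spans changes of more than 2-fold in either direction. No gene of 14180 passed in that comparison (0%), though 1594 had an unadjusted p under 0.05 and DESeq2 called 93. In macula densa cells 21.8% of genes were lower on low salt with enalapril without overlap, and Fras1 was among them.

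In control cells every Fras1 library on low salt with enalapril (8.19 to 34.3 CPM) lay below every one on control diet (37.7 to 70.5 CPM). That held for 2.09% of genes, and 2.1% were higher without overlap. The log2 fold change was -1.04 (standard error 0.45, 95% interval -2.01 to -0.07), with an unadjusted p of 0.0378 and an edgeR adjusted p of 0.738, so it did not pass. Frem2 was at -0.60 (95% interval -1.68 to 0.48, edgeR adjusted p = 0.965) and Grip1 at -0.08 (-1.004 to 0.85, 0.998), both with overlapping libraries. The principal cell sum was 117 to 808 CPM on control diet and 102 to 345 CPM on low salt with enalapril, and its part in the Fras1 values was not tested. Ren1 was the only gene called there (1 of 14180, 0.00705%).

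The difference between the diet effects of macula densa and control cells did not pass for the members tested. It was 1.32 for Frem2 (95% interval -0.78 to 3.42), 0.20 for Fras1 (-1.52 to 1.91) and 0.97 for Grip1 (-0.89 to 2.83), with edgeR adjusted p-values of 0.812, 0.973 and 0.854. Without macula densa control diet replicate 1 and 2 in turn Frem2 was 4.09 and 0.29. Without macula densa low salt replicate 1 and 2 Fras1 was 0.82 and -1.28, and Grip1 1.43 and -0.10. Fras1 was also just below 0 without macula densa control diet replicate 2 (-0.0027) or control-cell low salt replicate 3 (-0.088). For Frem1 the value was 2.53, given as a description. No gene passed (0%), 997 had an unadjusted p under 0.05, and DESeq2 called 13.

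Across the 8 control-cell libraries, which share a cell sort and differ in diet and marker content, Fras1 and Frem2 went together (Pearson r = 0.961, Spearman rho = 0.738 of log2 CPM, n = 8, as a description). Low salt replicate 3 was the lowest of these libraries for both genes (3.07 and 2.28 log2 CPM), and r without it was not computed. Grip1 did not follow either (r = -0.09 with Fras1 and -0.00 with Frem2).

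Of 22 genes linked to the complex through binding, processing, shared phenotypes or the nephronectin pathway, 19 could be tested. In the averaged comparison 4 were higher in macula densa cells and 9 lower, where 7.48% and 13.9% of all genes tested were. The median log2 fold change was -1.27, against -0.06 over all genes. The receptor Gfra1 was higher (3.70, standard error 0.57, edgeR adjusted p = 0.00111), at 3.46 ± 1.20 CPM in macula densa cells against 0.149 ± 0.133 CPM in control cells on control diet. The growth factor Pdgfc (2.27), the anchoring fibril collagen Col7a1 (1.83) and the integrin subunit Itgav (0.94) were also higher, with edgeR adjusted p-values of at most 0.00758. Col7a1 measured 2.96 ± 0.160 CPM in macula densa cells on control diet and 7.47 ± 0.807 CPM on low salt with enalapril (SD, n = 2), against 1.26 ± 0.274 and 1.32 ± 0.486 CPM in control cells (SD, n = 4).

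The ligand nephronectin, Npnt, was lower in macula densa cells (-3.84, standard error 0.55, edgeR adjusted p = 0.000729), at 17.0 ± 8.21 CPM against 194 ± 13.9 CPM on control diet. Its integrin subunits Itga8 and Itgb1 were called lower as well. Itga8 had 0 counts in both macula densa libraries on low salt with enalapril, where control cells had 3.63 ± 2.55 CPM. That mean was 6.80 times the floor of 3 counts per library (0.533 CPM), and the lowest control-cell library had 1.08 CPM. On each diet alone Itga8 did not pass (edgeR adjusted p = 0.194 on control diet and 0.150 on low salt with enalapril). The averaged Itgb1 value was -0.85 (edgeR adjusted p = 0.0458), and with library totals alone -0.68 (0.127). The calls of Itga8 and Itgb1 were lost in 9 and 11 of 20 alternatives, with edgeR adjusted p-values of up to 0.118 and 0.162. Among them for Itga8 were the fits without macula densa control diet replicate 2, either macula densa low salt library, control-cell control diet replicates 1, 2 or 3, or control-cell low salt replicates 2 or 4. For Itgb1 the same held, with macula densa control diet replicate 1 added.

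The paralog scaffold Grip2 (-3.76), the guidance ligand Slit3 (-2.69), the proteoglycan Cspg4 (-2.40), the ephrin Efnb1 (-2.39), the interleukin receptor Il1r1 (-2.14) and the laminin receptor subunit Itga3 (-2.05) were lower too, with edgeR adjusted p-values of at most 0.00696. Leaving out 1 macula densa library moved some of these values and kept the calls: Grip2 was -4.50 without control diet replicate 1, and Efnb1 -3.19 without low salt replicate 1. Without low salt replicate 2 Il1r1 was -3.51 and Slit3 -5.99, a fitted value with the remaining library of that group at 0 counts. On control diet 2 of 19 were higher and 4 lower, where 2.69% and 3.92% of all genes were, and on low salt with enalapril 3 and 5, where 3.15% and 4.13% were. No partner was called for diet or for the difference between diet effects. Markers of principal cells, podocytes and endothelium, given above, were called lower in macula densa cells, as were Npnt, Itga3 and Itga8. Itga8 is itself in the fibroblast and mesangial list. Npnt measured 175 to 209 CPM in control cells on control diet, where podocyte sums were 39.98 to 1317 CPM and endothelial sums 37.4 to 1314 CPM. In control cells on low salt with enalapril it varied more, from 16.4 to 152 CPM. Podocyte sums there were 129 to 1056 CPM and endothelial sums 184 to 1060 CPM. The part of the cell mixture in these values was not tested.

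**Figure D4:**
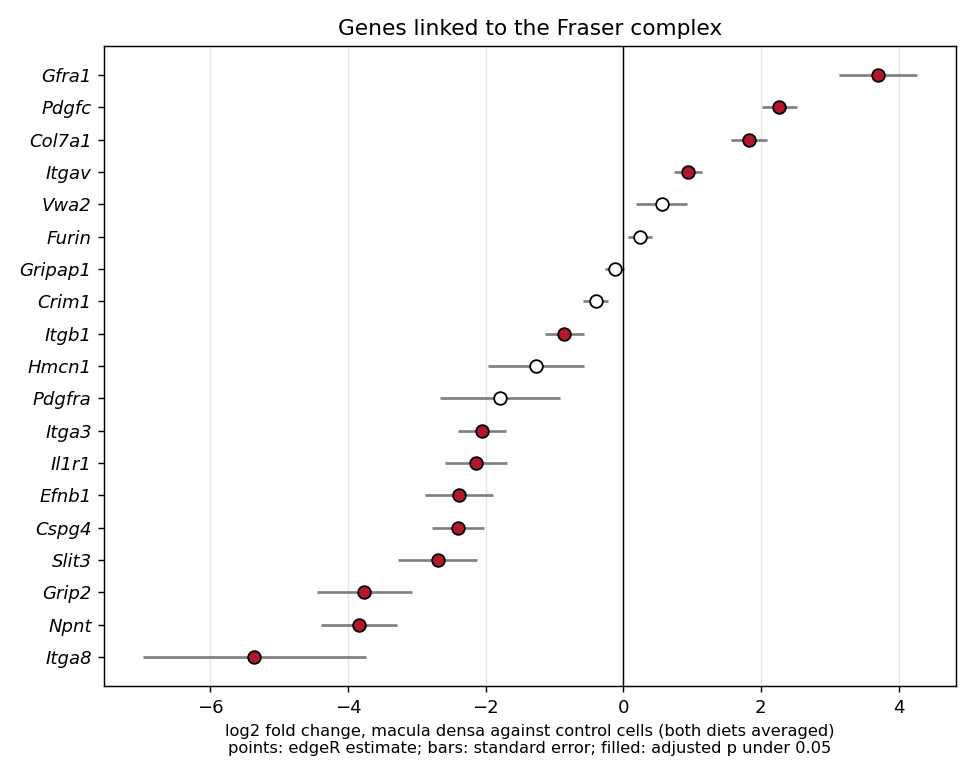
Log2 fold change of the 19 tested genes linked to the Fraser complex, macula densa against control cells averaged over both diets; points are edgeR estimates, bars standard errors, filled points pass an adjusted p of 0.05. Gfra1 (3.70) is highest and Itga8, with 0 counts in 2 libraries, lowest, with 4 filled points right of 0 and 9 left.

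Of 24 basement membrane genes, the layer in which the complex sits, 23 were tested. In macula densa cells 3 were higher and 13 lower in the averaged comparison (median -1.28, against -0.06 over all genes), where 7.48% and 13.9% of all genes tested were called. On control diet 0 were called higher and 9 lower, where 2.69% and 3.92% of all genes were. On low salt with enalapril 3 were higher and 8 lower, where 3.15% and 4.13% were. In the averaged comparison the 3 higher genes were the collagen IV chains Col4a3 (0.96) and Col4a4 (0.76) and the laminin chain Lamb1 (0.49). Their edgeR adjusted p-values were at most 0.0242. All 3 passed on low salt with enalapril and none on control diet (edgeR adjusted p = 0.316, 0.384 and 0.403). Col4a3 measured 208 ± 9.11 CPM in macula densa cells and 143 ± 45.2 CPM in control cells on control diet, and 325 ± 75.7 against 126 ± 35.1 CPM on low salt with enalapril. The averaged Lamb1 call was lost in 8 of 20 alternatives. Among them were the fits without any 1 of the macula densa libraries, without control-cell control diet replicate 3 and without control-cell low salt replicate 4. Among the genes lower in the averaged comparison, nidogen, Nid1, had 0 counts in both macula densa libraries on low salt with enalapril. Control cells there had 18.3 ± 10.98 CPM (7.14 to 29.1), a mean 34.3 times the floor of 3 counts per library (0.533 CPM). The laminin chain Lama3 (-3.08, edgeR adjusted p = 0.00234) and the perlecan gene Hspg2 (-2.84, 0.00173) followed. Lama3 was -6.08 without macula densa low salt replicate 1, again with the remaining library at 0 counts. None was called for diet.

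Genes whose log2 CPM most resembled Frem1 over the 12 libraries were Etv1 (Pearson r = 0.990), Camk2d (0.989), Ptgs2 (0.975), Ksr2 (0.974), Gpc3 (0.971), Rnf145 (0.968), Pbx3 (0.961) and Stk26 (0.961), among 6687 genes with a mean of at least 5 CPM. The libraries share cell type and diet, so r describes a shared pattern over 4 groups. Ptgs2, the inducible cyclooxygenase of the macula densa, measured 15.1 CPM in macula densa cells on control diet and 142 CPM on low salt with enalapril, and at most 1.47 CPM in any control-cell library. Etv1, a transcription factor, measured 6.83 and 19.5 CPM in macula densa cells on the respective diets and 1.16 and 1.43 CPM in control cells. Camk2d, a calcium-dependent kinase, measured 52.1 and 85.0 CPM against 18.6 and 21.2 CPM.

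**Figure D5:**
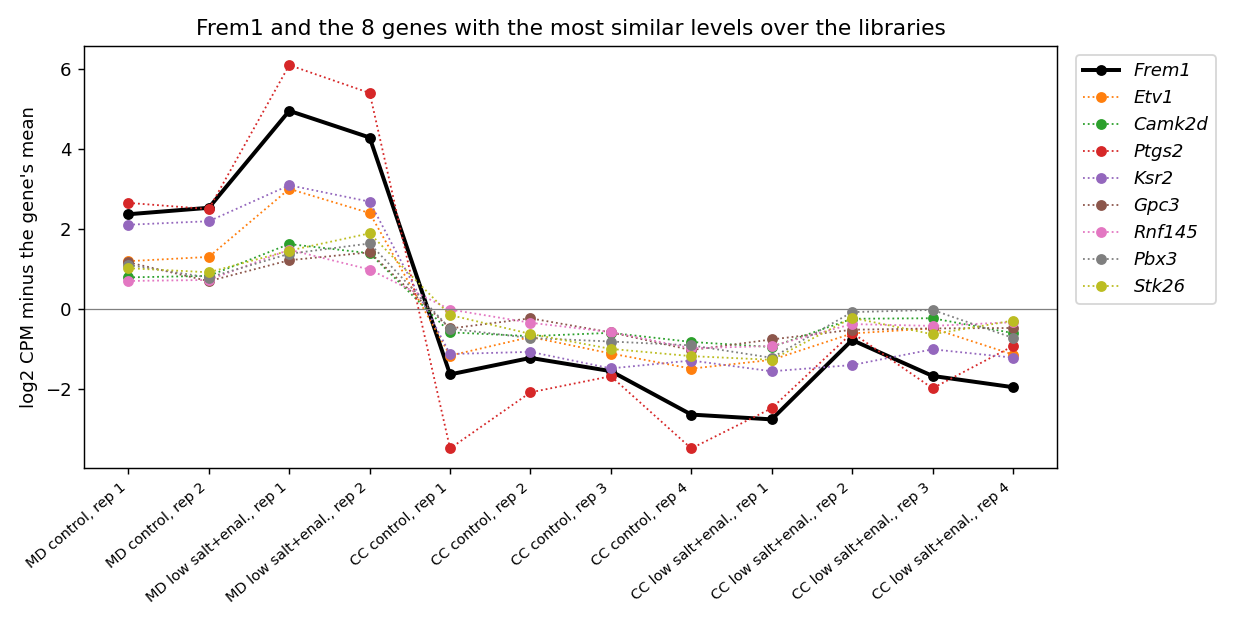
Log2 CPM of Frem1 (black) and the 8 genes most like it, each minus its own mean, in the 12 libraries of macula densa (MD) and control cells (CC); dotted and solid lines join the points of a gene and carry no order. Frem1 sits 2.38 to 4.96 above its mean in MD and from -2.75 to -0.77 against it in CC, and Ptgs2 has the wider swing.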

How the data were processed

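Total RNA of sorted cells was sequenced in 12 libraries. The deposited values are expected counts per gene, estimates of the authors' counting tool, of which 16.1% were not whole. The submitters' processing notes name STAR 2.61, Partek and mm10; which counter was used, and whether it used strand, is not given in the sources used here. No gene summed to fewer than 10 counts in the table, and 0 columns lacked a sample. Symbols, starts and ends of 23351 of 23378 genes equalled GENCODE M21 (GRCm38) once 1 was taken from each end, all 4 members included.

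Counts were rounded and fitted with edgeR 4.0.16 in R 4.3.3: filterByExpr (count minimum 10, total minimum 15), TMM scaling and a quasi-likelihood test with 1 coefficient per group over all 12 libraries. P-values were adjusted over all 14180 genes (Benjamini-Hochberg, threshold 0.05). log2 CPM used a prior count of 2. Intervals of pooled counts and floors hold counting error alone, as reads carried no molecular identifiers and need not be separate molecules. Likeness was ranked by Pearson r.

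The members and gene lists were chosen with earlier results of these data known. By the naming rule the text names the 4 members, the linked genes called in the averaged comparison, the 3 largest changes each way among basement membrane genes called, list genes called for diet, the 8 genes most like Frem1 and 3 most like each other member, overlapping genes, Nos1 and Ren1; Slc12a1 and Gm42418 are named outside it. Marker lists covered macula densa, proximal tubule, thick ascending limb, principal cells, intercalated cells, distal convoluted and connecting tubule, podocytes, parietal epithelium, endothelium, smooth muscle and renin cells, leukocytes, and fibroblasts and mesangium.

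The fit was tested on simulated counts: 70.5% of 200 genes changed 4-fold were found in the averaged comparison (13630 genes tested), 26.0% for diet in macula densa cells (13633) and 64.5% for diet in control cells (13625), with 7, 1 and 11 false calls. Alternatives were DESeq2 1.42.0 size factors and Wald test, library totals alone, leaving out Gm42418, Mir6236 and mitochondrially encoded genes, no filter, a mean of at least 5 CPM, only the groups compared, replicate blocks by title or description number, and fits without each library in turn.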

Additional observations from a re-analysis of the deposited data

Results flagged for a closer look

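Within groups of 4 libraries, 2 of 8 gene and group combinations held a library far from the other 3 by Dixon's criterion; chance gives about 1 in 20. Frem2 in control cells on low salt with enalapril had 2.28 log2 CPM in replicate 3 (4.62 CPM), where the others had 3.58 to 3.83. Grip1 in the same group had 0.27 log2 CPM in replicate 2 (0.979 CPM), where the others had 1.36 to 1.51.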

How the results depend on the processing

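Frem2, Fras1 and Grip1 kept their direction in the comparisons of cells under every alternative. Frem1 was chosen by its values there, so its direction is not counted. With DESeq2's Wald test, genes called numbered 2000 on control diet (938 with edgeR), 1922 on low salt with enalapril (1031), 93 for diet in macula densa cells (0), 74 for diet in control cells (1) and 13 for the difference of diet effects (0), and Fras1 on control diet was -1.73 and called. Fits of only the groups compared called 468 genes on control diet, 105 for diet in macula densa cells and 0 for diet in control cells; there Frem2 on control diet (-3.17) and Grip1 (-2.42) lost their calls, while Fras1 on control diet (-1.71) and Frem2 on low salt with enalapril (-1.87) gained one. A mean of at least 5 CPM left 1873 genes called in the averaged comparison (3027) and 603 on control diet, and Grip1 was not in that fit. Linked genes called ranged from 3 to 10 on control diet and 5 to 12 on low salt with enalapril over alternatives with all libraries. Grip1 on control diet lost its call with library totals alone (-2.25) and with no filter (-2.39). The cause of these changes was not tested.

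Libraries sharing a number in the labels' titles (14 pairs, correlation of deviations -0.38 to 0.28, 2 over 0.1) or in their descriptions (4 pairs, -0.04 to 0.23, 1 over 0.1) were not shown to pair. In a group of 2 libraries the deviations from the group mean are exact opposites, so this check cannot settle whether libraries pair. A replicate block for the title number called 1908, 378 and 396 genes in the averaged, control diet and low salt comparisons and 0 for diet in control cells, and lost the calls of Fras1 (-1.64, adjusted p 0.0513) and Grip1 (-1.79) averaged, of Frem2 (-3.26) and Grip1 (-2.25) on control diet, and of Itga8, Itgb1, Lamb1 and Col4a3 averaged (Col4a3 adjusted p 0.0973). A block for the description number called 2292 genes on control diet, 2231 on low salt with enalapril and 3 for the difference of diet effects; Fras1 was called on each diet (-1.58 and -2.07, adjusted p 0.0187 and 0.00902) and Frem1 on low salt with enalapril was 6.49.

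Leaving out each library in turn, genes called ranged from 1680 to 3968 averaged, 122 to 2490 on control diet, 194 to 1894 on low salt with enalapril, 0 to 1 for diet in macula densa cells and 1 to 5 for diet in control cells. Log2 fold changes ranged from -2.33 to -1.28 for Fras1 and -2.44 to -1.68 for Grip1 averaged, from -5.99 to -2.20 for Frem2 and -2.74 to -2.08 for Grip1 on control diet, and from -2.16 to -1.70 for Frem2 on low salt with enalapril. A macula densa group left with 1 library is assumed to vary like the other groups. Counts of 1 to 7 per library limit Frem1 in control cells and Grip1 in macula densa cells.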

Other observations

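Within control-cell libraries, Frem2 had 26.5 to 36.9 counts per 100 Fras1 counts on control diet and 40.5 to 56.4 on low salt with enalapril, with no overlap, a ratio that does not depend on scaling. The mean log2 ratio differed by 0.51 (-1.14 ± 0.224 against -1.65 ± 0.214, SD, n = 4 each), with a two-sided exact permutation p of 0.0286, the smallest 4 against 4 can give. It was 1 of 3 ratios to Fras1 computed after the data were seen. Its adjusted p was 0.0858, so it did not pass. That was the smallest value it could take beside the other 2 ratios as measured. The exact permutation p was 0.0571 without low salt replicate 3 (difference 0.41, n = 3 against 4). The ratios of Frem1 and Grip1 to Fras1 gave exact permutation p-values of 0.429 and 0.286 (n = 4 each).

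Genes most like Frem2 over the 12 libraries were Cav1 (Pearson r = 0.930), Col18a1 (0.923) and Bst1 (0.919). Col18a1 is also a basement membrane gene, at 62.3 and 88.0 CPM in macula densa cells and 180 and 136 CPM in control cells on control diet and low salt with enalapril. Those most like Fras1 were Nceh1 (0.967), Aqp6 (0.952) and Sh2d4a (0.951); Aqp6, an intercalated cell aquaporin, measured 17.7 CPM in control cells on control diet and 5.67 CPM on low salt with enalapril. Those most like Grip1 were Pfkfb3 (0.946), Epn3 (0.910) and Cnn3 (0.908).

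Of the 3 linked genes that could not be tested, Frem3, the remaining FREM family member, and the growth factor Gdnf had 0 counts in all 4 macula densa libraries and at most 6 counts in a control-cell library. Ret, the receptor of Gdnf, had at most 4 counts in any library.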
